A study of Mus musculus with 4 samples.

Results

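The genes described here encode digestive enzymes of the exocrine pancreas, measured in RNA of the mouse small intestine. They are the carboxypeptidase genes Cpa1 and Cpb1, the chymotrypsin-type protease genes Ctrb1 and Ctrl, the elastase-type protease genes Cela1, Cela2a and Cela3b, the lipase genes Cel and Pnliprp1, and the trypsinogen gene Prss2. These 10 genes were chosen by their signals on these same arrays, for being lower in the pools from mice given lubiprostone. The lubiprostone ratios below are therefore a description of the genes chosen and not a finding about them. All probe sets that the array's annotation gives to 1 of the 10 symbols alone were taken. There were 16, of 45101 on the array, and the 10 genes stood among 12259 genes measured.

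Lubiprostone is a bicyclic fatty acid derived from a prostaglandin and is given as a laxative that raises chloride and fluid secretion in the gut. The study compared C57BL/6 mice in 4 groups, WT and CF, each as control or with lubiprostone, where CF stands for mice with a targeted null mutation of Cftr (cftr-tm1Unc), the epithelial anion channel gene mutated in cystic fibrosis. Mice of all 4 groups, controls included, were fed the liquid diet Peptamen from weaning, and the treated mice received lubiprostone at 10 µg/kg per day by gavage for 2 weeks. The labels do not say whether control mice were gavaged, and they give neither the age nor the sex of the mice. RNA was pooled in like amounts from 10 control and 7 treated WT mice and from 10 control and 8 treated CF mice, by the design that accompanies the arrays, although the study's methods put fewer mice in the WT control pool. Each pool was hybridized to 1 array, so n was 1 per group, no difference could be set against a spread between mice or pools, and no test was possible. The RNA came from the whole small intestine after the mesentery had been cut away, and the labels do not say how pancreatic tissue was kept apart. In such bulk RNA, fewer cells of a type and less RNA per cell cannot be told apart.

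Acinar cells of the pancreas make digestive enzymes in large amounts, mostly as inactive zymogens, and release them into the duodenum when cholecystokinin or nerves stimulate them. In the gut lumen enteropeptidase, the product of Tmprss15, activates trypsinogen, and trypsin then activates the other zymogens. Their genes are switched on together by the acinar transcription factor complex PTF1, which contains Ptf1a and Rbpjl and reads a pair of short DNA motifs, an E-box and a TC-box. In cystic fibrosis, loss of CFTR lowers bicarbonate and fluid secretion by the pancreatic ducts. The study describes CF mice, unlike most patients, as pancreatic sufficient.

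The bases just upstream of the starts of the 10 genes were searched for both PTF1 motifs, CACCTG (the E-box) and TGGGAAA (the TC-box), on both strands. The genes were chosen as pancreatic enzyme genes that were lower with lubiprostone, so their moving together was set by the choice. Whether PTF1 had a part in their signals on these arrays was not tested. All 10 genes matched a RefSeq promoter (build GRCm38.p6), and the 250 bases before the start were read. CACCTG was present upstream of 7 of the 10 genes, against 17.2% of 32851 promoters of the same length. TGGGAAA was present upstream of 5 of the 10, against 6.82% of promoters. Both were present upstream of Cel, Cela2a and Prss2, or 3 of the 10, against 1.17% of promoters. The search took both motifs anywhere in the 250 bases and asked for no set spacing, so these are not counts of paired PTF1 sites. The first bases of CACCTG and TGGGAAA lay 218 and 85 bases upstream in Cela2a and 169 and 111 in Prss2. In Cel the nearest pair lay at 65 and 87. The looser E-box CANNTG, which takes in CACCTG, was found in all 10 and in 66.2% of promoters, and TATAAA in 2 of the 10 and 12.4% of promoters. Pnliprp1 had neither PTF1 motif in this window. A match to these letters is a description of the sequence and does not show that a factor binds there. The upstream sequences of the 3 genes with both motifs follow, with that of Cpa1, which had the largest ratio of control to lubiprostone in WT mice. They are printed 5′ to 3′ on the strand of the gene, and capitals mark CACCTG and TGGGAAA or their reverse complements. Cel lies at chr2:28563404-28563653 on the minus strand, Cela2a at chr4:141826006-141826255 on the minus strand, Prss2 at chr6:41521526-41521775 on the plus strand and Cpa1 at chr6:30638968-30639217 on the plus strand.
Cel: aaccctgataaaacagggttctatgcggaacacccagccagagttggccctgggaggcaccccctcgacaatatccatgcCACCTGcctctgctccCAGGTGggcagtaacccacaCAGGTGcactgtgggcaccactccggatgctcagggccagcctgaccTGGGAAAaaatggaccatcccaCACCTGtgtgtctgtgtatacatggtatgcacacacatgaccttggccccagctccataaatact
Cela2a: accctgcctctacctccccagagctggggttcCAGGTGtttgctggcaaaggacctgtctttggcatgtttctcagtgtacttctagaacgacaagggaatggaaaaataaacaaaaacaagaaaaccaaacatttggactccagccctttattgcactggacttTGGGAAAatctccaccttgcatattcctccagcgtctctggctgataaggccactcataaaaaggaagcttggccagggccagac
Prss2: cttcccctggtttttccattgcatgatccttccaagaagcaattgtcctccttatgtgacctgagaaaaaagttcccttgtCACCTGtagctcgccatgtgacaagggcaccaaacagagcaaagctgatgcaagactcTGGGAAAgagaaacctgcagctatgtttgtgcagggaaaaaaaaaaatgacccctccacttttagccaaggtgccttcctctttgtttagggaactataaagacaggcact
Cpa1: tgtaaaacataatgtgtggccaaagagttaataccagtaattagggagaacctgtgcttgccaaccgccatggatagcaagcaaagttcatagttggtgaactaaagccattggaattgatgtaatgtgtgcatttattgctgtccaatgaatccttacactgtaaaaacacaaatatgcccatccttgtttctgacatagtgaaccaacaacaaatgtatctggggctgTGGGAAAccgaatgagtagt
Cel held 4 copies of CACCTG and 1 of TGGGAAA, Cela2a and Prss2 held 1 of each, and Cpa1 held 1 copy of TGGGAAA with no CACCTG in this window.

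Each value is a signal, the intensity in arbitrary units that the probes of 1 probe set give together, and every array had the same trimmed mean of 500.003. A signal is compared here only between arrays for the same probe set, since probe sets differ in how well they bind. Array medians ran from 109 to 124 and the 75th percentiles from 464 to 482. Where 4 signals follow each other below, they are those of WT control, then WT + lubiprostone, then CF control, then CF + lubiprostone. All 16 probe sets were above the median on all 4 arrays, so that no member signal was set to the floor used for dim probe sets. The lowest member signals stood not far above it, at 134 for a probe set of Cela3b and 157 for Cpa1 in WT + lubiprostone, where the array median was 123. In both control pools all 16 were also above the 75th percentile, against 4 of 16 in WT + lubiprostone and 13 of 16 in CF + lubiprostone. In every one of the 16 probe sets the WT + lubiprostone signal was the lowest and the CF + lubiprostone signal the second lowest. Of all genes measured, 5.8% had that order, counted by gene on the mean log2 signal after the floor and not by probe set. The choice of members by lubiprostone ratios fixes much of this order.

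**Figure D1:**
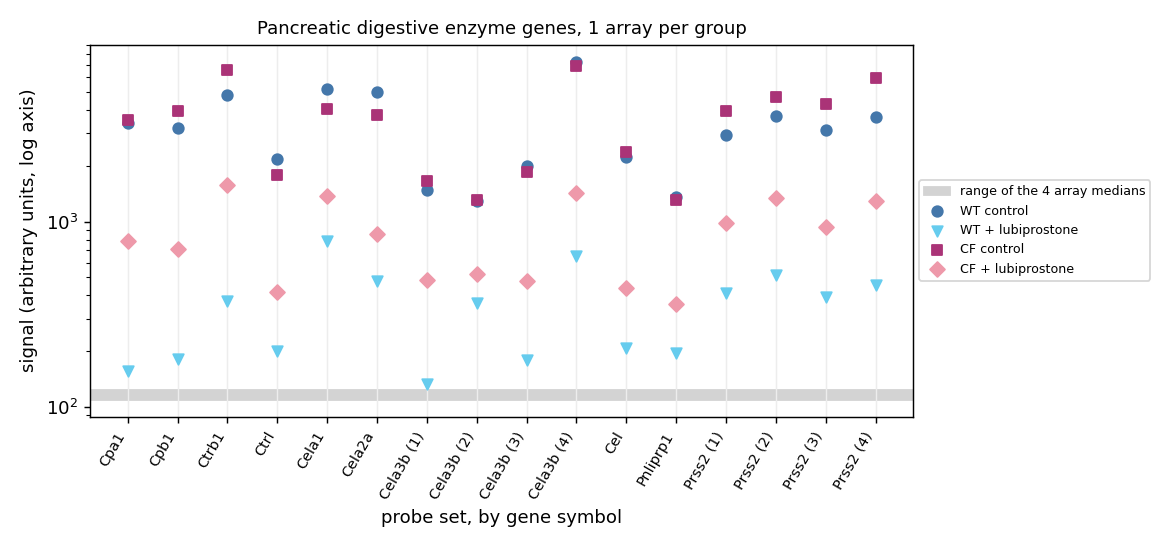
Signal (arbitrary units, log axis) of each of the 16 probe sets of the 10 pancreatic digestive enzyme genes on the 4 arrays, 1 point per array, with the range of the 4 array medians as a grey band. In each probe set both control points lie above the CF + lubiprostone point, which lies above the WT + lubiprostone point, and no point falls into the band of 109 to 124.

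The carboxypeptidases cut single amino acids from the C-terminal end of peptides. Cpa1, carboxypeptidase A1, which prefers aromatic and aliphatic residues, had a signal of 3422 in the WT control pool against 157 with lubiprostone, and of 3528 in the CF control pool against 789.8 with lubiprostone. The control pools were nearly level, at a CF to WT ratio of 1.03. Cpa1 was 21.8-fold lower with lubiprostone in WT mice and 4.47-fold lower in CF mice. Cpb1, carboxypeptidase B1, which removes lysine and arginine, gave 3214, 182, 3967 and 708. It was 17.7-fold lower with lubiprostone in WT and 5.60-fold lower in CF. These carboxypeptidases had the largest WT ratios of the 10 genes, and Cpb1 had the largest CF ratio.

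The chymotrypsins cleave after large hydrophobic residues. Ctrb1, chymotrypsinogen B1, had signals of 4840.15, 371, 6570.1 and 1581. The CF control signal was 1.36 times that of WT control, and the gene was 13.0-fold lower with lubiprostone in WT and 4.16-fold lower in CF. Ctrl, chymotrypsin-like, gave 2176, 201, 1784 and 417. Here the CF control was below the WT control, at 0.820 of it. Ctrl was 10.8-fold lower with lubiprostone in WT and 4.28-fold lower in CF.

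The elastase-type proteases, which cleave after small residues or, in some members, other residues, were represented by 3 genes. Cela1, found also outside the pancreas in other species, gave 5206, 789, 4071 and 1368. It had the smallest ratios of the 10 genes, 6.60-fold lower with lubiprostone in WT and 2.98-fold in CF, just short of 3-fold. Cela2a gave 4980.5, 478, 3747 and 859.9, which is 10.4-fold lower in WT and 4.36-fold lower in CF. Its CF control signal was 0.752 of WT control, the lowest such ratio among the 10 genes. Cela3b had 4 probe sets, and the brightest gave 7301, 655, 6907 and 1431. The least responsive of the 4 gave 1295, 362, 1305 and 524. The WT ratio of the 4 ran from 3.58 to 11.1 and the CF ratio from 2.49 to 4.83. Averaged on the log2 scale, Cela3b was 8.36-fold lower with lubiprostone in WT and 3.56-fold lower in CF and its control signals were level, with ratios of CF to WT from 0.929 to 1.13 over the 4 probe sets. A further probe set, listed for both Cela3a and Cela3b and so not counted, gave 8970.04, 735, 9907 and 1993, in the same order of groups.

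Cel, carboxyl ester lipase, which is stimulated by bile salts and splits cholesteryl esters and other lipids, gave 2218, 209, 2368 and 436. The controls differed by a ratio of 1.07, and Cel was 10.6-fold lower with lubiprostone in WT and 5.43-fold lower in CF. Pnliprp1, a relative of pancreatic lipase with little known lipase activity, gave 1359, 194, 1299 and 359.7. It was 6.99-fold lower in WT and 3.61-fold lower in CF, with controls at a ratio of 0.956.

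Prss2 encodes an anionic trypsinogen, one of many closely related trypsinogen genes of the mouse. Its 4 probe sets, 3 of which carry the suffix for probes that can bind related transcripts, gave 2938 to 3733 in the WT control pool against 411 to 517 with lubiprostone, and 3928 to 5967 in the CF control pool against 938 to 1347 with lubiprostone. They stood close together, at 7.14- to 8.03-fold lower with lubiprostone in WT and 3.50- to 4.64-fold lower in CF. Averaged, Prss2 was 7.58-fold lower in WT and 4.15-fold lower in CF. In CF control all 4 stood at 1.26 to 1.62 times their WT control signal. Signals of Prss2, and of other trypsinogens, cannot be assigned to 1 gene with certainty because of this likeness in sequence. Of the 16 member probe sets, 5 carried that suffix, the others of them being 2 of Cela3b.

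Over the 10 genes, the median log2 ratio of WT + lubiprostone over WT control was -3.39, a median of 10.5-fold lower, beside a median of -0.00 over all genes and a 1st percentile of -0.74. That of CF + lubiprostone over CF control was -2.08, a median of 4.22-fold lower, beside 0.02 over all genes and a 1st percentile of -0.96. At 3-fold, the threshold used in the study, 10 of the 10 genes were lower with lubiprostone in WT, where 0.163% of all genes tested were (19 of 11691), and 9 of the 10 in CF, where 0.212% were (25 of 11795). These are the ratios the genes were chosen by, so nothing is read from their distance to the other genes. Among all genes with several kept probe sets, the log2 ratios of those probe sets had a median SD of 0.17 for WT and 0.22 for CF, a spread within arrays only.

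**Figure D2:**
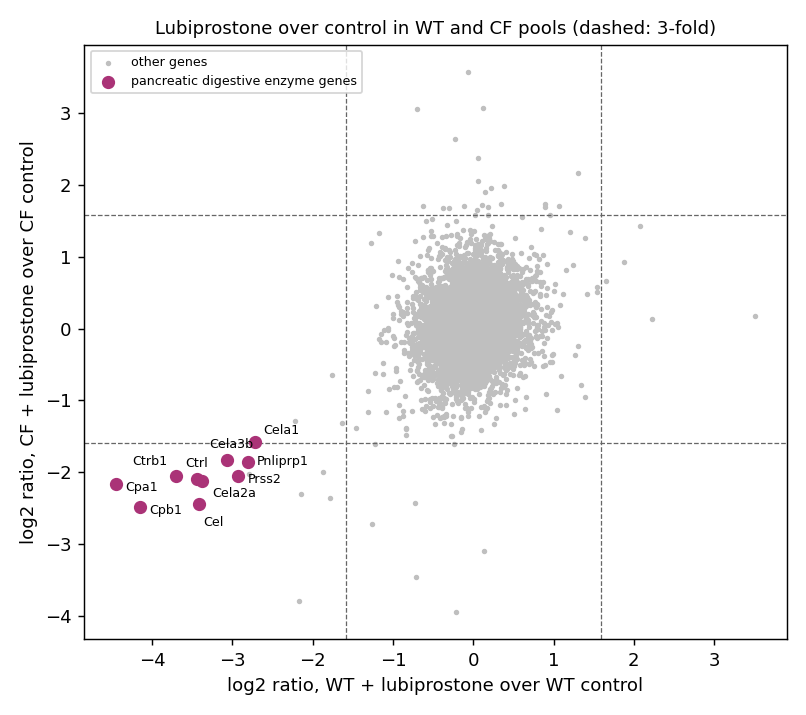
Log2 ratio of lubiprostone over control in WT mice (horizontal) against that in CF mice (vertical) for all genes with both ratios, 1 point per gene, with dashed lines at 3-fold. The 10 pancreatic digestive enzyme genes lie apart at the lower left, from -4.45 to -2.72 in WT and from -2.49 to -1.57 in CF.

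The WT and CF ratios come from separate arrays. All 10 genes had a larger ratio of control to lubiprostone in WT than in CF mice. The share of all genes with such a difference was not counted, and the 10 genes were chosen on these same arrays. The gap on the log2 scale ran from 0.87 for Prss2 to 2.29 for Cpa1, and with 1 array per group this difference between genotypes was not tested. Across the 10 genes, those with the larger WT ratio tended to have the larger CF ratio, with a Pearson r of 0.68 and a Spearman rho of 0.79. The 10 points share the same 4 arrays and pools, so these coefficients are a description of the pools.

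The controls and the treated pools can also be set against each other across genotypes. Between the controls, 0 of the 10 genes reached a ratio of 3-fold upwards in CF (0.508% of all genes did) and 0 reached it downwards (0.923% of all genes did). The median log2 ratio of CF control over WT control was 0.02 over the 10 genes and -0.03 over all genes, with a range from -0.41 for Cela2a to 0.48 for Prss2. The direction was mixed, with 10 of the 16 probe sets higher in CF control. Between the treated pools, all 10 genes were higher in CF + lubiprostone than in WT + lubiprostone, with a median log2 ratio of 1.15, or 2.21-fold, beside -0.00 over all genes. Cpa1 at 5.03-fold, Ctrb1 at 4.26-fold and Cpb1 at 3.90-fold were the 3 of 10 that reached 3-fold, where 0.526% of all genes did. The remaining genes lay between 1.73-fold for Cela1 and 2.55-fold for Prss2. The treated arrays are among those the genes were chosen on.

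Genes at least 3-fold lower with lubiprostone in both genotypes numbered 14 of 11227 (0.125%). They made up 73.7% of the 19 genes lower in WT and 56.0% of the 25 lower in CF. Besides 9 of the 10 enzyme genes they were 2210010C04Rik, a trypsinogen-like gene that carries only a clone name, the heat shock genes Hspa1a, Hspa1b and Hsph1, and the gasdermin gene Gsdmc2. The enzyme genes alone were 52.6% of the WT list and 36.0% of the CF list. The text of the study, by its own analysis of these arrays at 3-fold, reported no gene as lower with lubiprostone in both genotypes. Its table of array values nevertheless gives Gsdmc2 as more than 3-fold lower with lubiprostone in WT and in CF. The filter and the floor used here are not described there, and the source of the difference from the text of the study was not tested.

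Other secretory products of the acinar cell did not all share this pattern. The list held 34 genes, of which 17 had a probe set of their own and 16 were measured, 15 with a ratio in each genotype. With lubiprostone, 1 of them was at least 3-fold lower in WT and 2 in CF, and 1 was at least 3-fold higher in CF. Signals below the array median were set to it, so the counts of lower genes are lower bounds. Cuzd1, Gp2, Pla2g1b and Ctrc were too dim in WT control to reach 3-fold lower in WT. The median log2 ratio of the list was -0.33 in WT and -1.16 in CF, beside -3.39 and -2.08 for the 10 enzyme genes. These medians leave out the shared probe sets of amylase and of Try4 and Try5, which are given below. In RNA of the small intestine a gene of this list may also be made by cells of the gut. A level signal therefore need not describe acinar RNA, and the source of each signal was not tested. Sycn, syncollin of the zymogen granule, gave 416, 108, 330.01 and 64.0 on the brighter of its 2 probe sets. Since dim signals were set to the array median, its ratios are lower bounds, at least 3.10-fold lower in WT and at least 2.48-fold in CF. Cuzd1, a protein of the zymogen granule membrane, gave 285, 64.0, 365 and 114, at least 2.33-fold lower in WT and at least 3.05-fold in CF. Gp2, the main glycoprotein of that membrane, gave 305, 124, 526 and 236, or 2.47-fold and 2.23-fold lower.

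Enzymes and a cofactor of fat digestion outside the 10 genes were also measured. Clps, colipase, the cofactor of pancreatic lipase, gave 5378, 4254, 7716 and 3429 on 1 of its 2 probe sets, and over both it was 1.26-fold lower with lubiprostone in WT and 2.32-fold lower in CF. Pnliprp2, a lipase related to Pnliprp1, gave 3633, 3231, 8729 and 3666 on the brighter of 2 probe sets, 1.10-fold lower in WT and 2.64-fold lower in CF over both. Pla2g1b, the pancreatic phospholipase A2, gave 288, 71.6, 233 and 24.5 on its brightest probe set, with both lubiprostone signals below the array median, and over its probe sets it was at least 1.98-fold lower in WT and at least 1.75-fold lower in CF. For Clps and Pnliprp2 the CF control was the highest array, and in WT mice control and lubiprostone lay close together, unlike in the 10 enzyme genes.

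Of the remaining products, the ribonuclease gene Rnase1 gave 2371, 1558, 2770 (2769.63) and 1741, and the kallikrein gene Klk1 gave 2737, 2659, 3613 and 3132 on the brightest of 4 probe sets. The trypsin inhibitor gene Spink1 gave 24009, 23203, 19336 and 19690 (19689.7), the lectin gene Reg1 gave 34059, 39856, 37777 and 37172, and the lectin gene Zg16 had ratios of 1.07 and 1.09. Rnase1 was 1.52-fold lower with lubiprostone in WT and 1.59-fold lower in CF, Klk1 was 1.15-fold and 1.37-fold lower over its 4 probe sets. Reg1 was 1.17-fold higher in WT and 1.02-fold lower in CF, and Spink1 had ratios of 0.966 and 1.02. The nuclease gene Dnase1 gave 10854, 3955, 2360 (2360.11) and 901, 2.74-fold lower in WT and 2.62-fold lower in CF. Reg2, a relative of Reg1, gave 511, 286, 5099.65 and 1939. The trefoil factor gene Tff2 was higher with lubiprostone, at 11168, 20743, 3498 and 11260 (11259.8). Prss3, a trypsinogen, gave 43.7, 54.4, 702 and 91.7, so that the CF control stood far above the other arrays and the CF ratio was at least 5.87-fold. Ctrc, chymotrypsin C, gave 142, 118, 80.6 and 97.2, around the array median.

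Probe sets that the annotation lists for several genes were left out of every count and are given here because they carry amylase and further trypsinogens. The one shared by the pancreatic amylase genes Amy2a1 to Amy2a5 gave 17821, 1475, 13571 and 4364, which is 12.1-fold lower with lubiprostone in WT and 3.11-fold lower in CF. The one shared by the trypsinogens Try4 and Try5 gave 6325, 407, 10307 and 1997, 15.6-fold lower in WT and 5.16-fold lower in CF. The one shared by Prss1, Prss3, Gm5771 and Gm10334 gave 77.1, 18.2, 1819.99 and 121, so it was bright in CF control only. The one shared by Gm2663 and 1810009J06Rik gave 108, 110.2, 258 and 151. The amylase probe set, that of Try4 and Try5 and that of Cela3a and Cela3b had the order seen in the 10 enzyme genes, lowest in WT + lubiprostone and second lowest in CF + lubiprostone. In the other shared probe sets the WT control signal was below that of CF + lubiprostone.

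**Figure D3:**
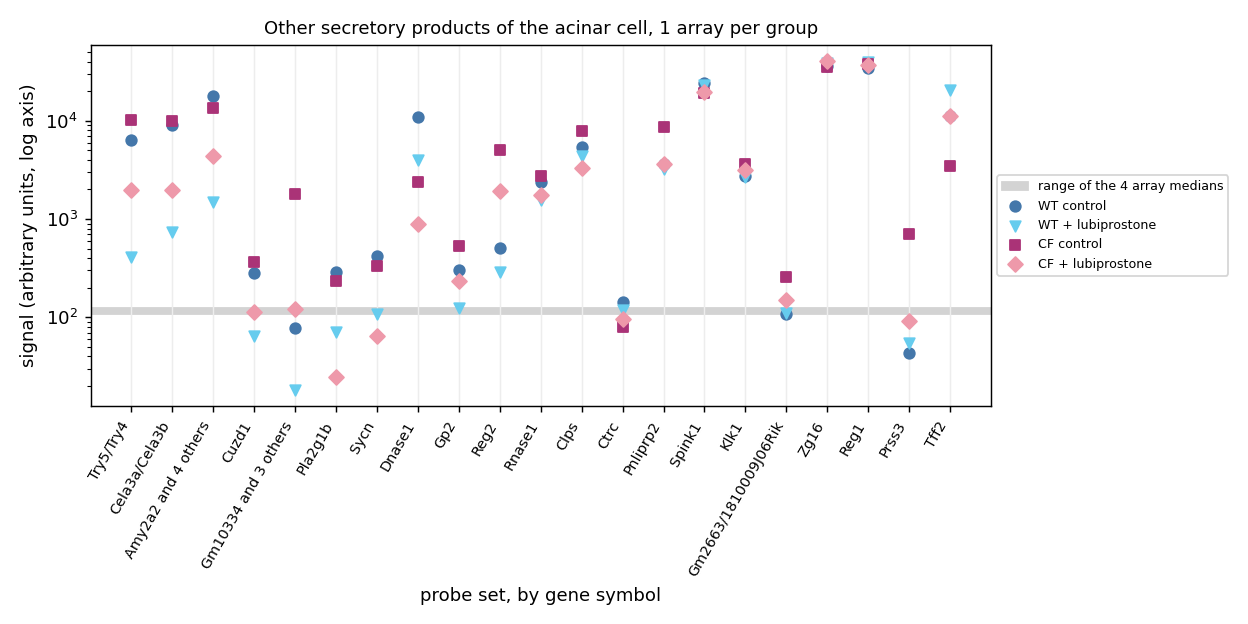
Signal (arbitrary units, log axis) on the 4 arrays of further secretory products of the acinar cell, 1 probe set per gene (the one brightest in WT control) or per set of genes that share it, ordered by the ratio of WT control to WT + lubiprostone. At the left, Try5/Try4, Cela3a/Cela3b and the amylases have ratios of 15.6, 12.2 and 12.1, while the WT + lubiprostone points of Reg1 and Tff2, at the right, lie above those of WT control.

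Transcription factors and regulators of the acinar cell were weak or level, unlike Sycn, Cuzd1 and Gp2, which were lower with lubiprostone in both genotypes. Of 15 acinar transcription factors and secretory regulators, 8 were measured and 7 were below the median on all arrays, and 0 of the 8 differed 3-fold in either lubiprostone comparison (medians 0.09 in WT and 0.08 in CF, log2). Ptf1a, the DNA-binding subunit of PTF1, gave 89.4, 80.1, 65.7 and 12.2, all below the array medians, and Rbpjl gave at most 46.6. The receptors of cholecystokinin and secretin, Cckar and Sctr, were below the medians as well. The measured members are also made by the gut or other tissues: Xbp1, Gata4, Gata6, Nr5a2, Bhlha15, Nupr1, Rab3d and Slc39a5. Their lubiprostone ratios lay between 0.828 for Nr5a2 in WT and 1.27 for Gata6 in CF. The summed signal of the list was 21865, 24482, 26970 (26969.7) and 30714 in the order of groups used above.

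Of 19 genes of the islets and pancreatic ducts, 16 had a probe set of their own and 10 were measured, with 0 of the 9 that had a ratio at 3-fold in WT and 0 of 10 in CF (medians -0.08 and 0.06, log2). Ins2, insulin, gave 11.8, 25.9, 89.7 and 16.1, below the median on every array, and Ppy, Nkx6-1, Ucn3, G6pc2 and Onecut1 were below it too. The brighter genes of this list are also made by the gut, among them Krt19, Slc2a2, Gcg, Sst, Pyy and Chga. Pdx1, a transcription factor of islets and of the duodenum, gave 582, 1547, 1048 and 1765 on its brighter probe set and was 2.23-fold higher with lubiprostone in WT and 1.77-fold higher in CF over both. The summed signal was 39267, 42490.5, 34410 (34409.7) and 37269. The part that pancreatic tissue in the samples may have in the enzyme signals was not tested.

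The labelled tissue showed its own markers. All 11 of the small intestinal epithelium genes that had a probe set were measured, with 0 at 3-fold in either lubiprostone comparison (median 0.06 in both), and their summed signal lay between 217830 (CF control) and 241427 (WT + lubiprostone). Of the 10 mesenteric fat genes 6 were measured, of which 6 had a ratio with lubiprostone in WT and 5 in CF, and their directions were mixed. In WT 1 of them, Scd1, reached 3-fold, at 3.38-fold lower. The summed signal of the fat list was 4691, 3307, 3743 and 4599, and its medians were -0.62 in WT and -0.65 in CF (log2). Fabp4, a fatty acid binding protein of adipocytes, averaged 1.28-fold lower with lubiprostone in WT and 2.18-fold higher in CF. Its bright probe sets disagreed in WT, at 1588 in control against 1676 with lubiprostone and at 1675 against 975. Cidec, a lipid droplet protein, was 1.12-fold lower in WT and 1.47-fold higher in CF. Lpl, lipoprotein lipase, was 1.79-fold lower in WT and 2.60-fold lower in CF, and Car3 was at least 1.68-fold and at least 1.58-fold lower. Adipoq, adiponectin, gave 173, 15.3, 99.5 and 1.56, of which only the WT control signal was above its array median, so that it had no CF ratio. The part of fat in the enzyme result was not tested. Of the gastric mucosa genes 7 had a ratio with lubiprostone in WT and 4 in CF, and of the liver genes 3 in both, with 0 of these at 3-fold. The gastric list had medians of 0.33 in WT and -0.51 in CF, and the liver list 0.03 and -0.35.

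Genes of the gut wall that act on, or in step with, the pancreatic enzymes were described in the same way. Tmprss15, enteropeptidase, gave 380.4, 602, 381 and 525, 1.58-fold higher with lubiprostone in WT and 1.38-fold higher in CF, the opposite side from the enzyme genes. In its list of trypsinogen activation and gut peptidases 14 genes were measured and 0 reached 3-fold with lubiprostone (medians 0.04 and 0.03). The same count of 0 held in both genotypes for 10 brush border carbohydrases and lipid digestion genes (medians 0.05 and 0.14), for the 11 of 12 measured protease inhibitors that had a ratio (0.06 and 0.03) and for 5 secretagogues of the pancreas made in the gut (-0.03 and 0.01). Cck, cholecystokinin, gave 998, 1032, 823 and 898, and Sct, secretin, gave 1179.54, 1152, 771 and 774. Nts, neurotensin, gave 2981, 1590.09, 1487 and 900.3, or 1.87-fold lower with lubiprostone in WT and 1.65-fold lower in CF, the same side as the enzyme genes. Among the inhibitors Serpina3n was at least 2.83-fold higher in CF. Among 15 measured genes of other protease families, of which 14 had a ratio in each genotype, 0 reached 3-fold in WT and 3 were at least 3-fold lower in CF, the mast cell proteases Mcpt1, Mcpt2 and Cpa3 (list medians 0.09 and 0.16).

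The genes outside the 10 whose profile was most like theirs were found by Pearson r over the 4 arrays with the mean log2 profile of the 10 genes, among 136 genes that spanned at least 4-fold. With 4 arrays, and 2 of them low in all members, a high r is easy to reach, and it is given as a description. The members themselves had r of 0.986 or more with their mean, which contains each of them, so these values are not comparable with those of other genes. The most alike was 2210010C04Rik at 0.996, with mean signals of 1872, 258, 2055 and 507 and ratios of 6.92-fold and 4.06-fold lower. Hspa1a (0.966), Hspa1b (0.963) and Hsph1 (0.904), which encode heat shock chaperones, and Gp2 (0.920) came next. Hspa1b gave 1671, 379, 2404 and 487. Unlike the enzyme genes, these heat shock genes were at least as far below control in CF as in WT, at 4.93-fold against 4.41-fold for Hspa1b, a difference that was not tested. The others of the 10 were Cyp1a1 (0.871), Me1 (0.784), Scd2 (0.752), Gsdmc2 (0.744) and Mcpt2 (0.640).

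**Figure D4:**
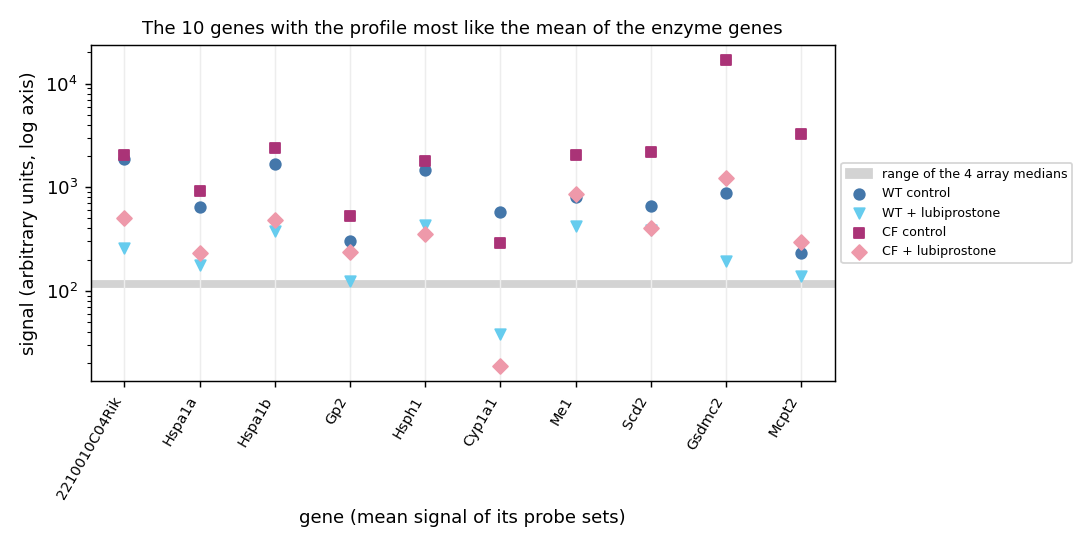
Mean signal (arbitrary units, log axis) on the 4 arrays of the 10 genes outside the enzyme genes with the highest Pearson r to the mean enzyme profile, in order from 0.996 for 2210010C04Rik to 0.640 for Mcpt2. In 2210010C04Rik and the heat shock genes both control points lie above both lubiprostone points, while Gsdmc2 and Mcpt2 are set apart by the CF control, at 16915 and 3270 (3270.37).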

How the data were processed

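Total RNA of the small intestine, pooled within each group of mice, was hybridized to Affymetrix mouse whole-genome arrays, 1 per group (4 arrays). The authors extracted the intensities with GCOS (MAS5 is also named in the submitters' processing notes), and the deposited table holds 1 linear intensity, the signal, per probe set, with no detection calls. The mean signal after trimming 2% at each end was 500.003 on each array, so the table had been scaled before deposit, and no further scaling was applied. The annotation gives 1 gene symbol for 34958 of the 45101 probe sets, more than 1 for 932 and no symbol for 9211. For 34754 the current symbol was taken from RefSeq by gene identifier. A probe set with more than 1 symbol entered no count.

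A probe set was kept when it reached the median of its array on at least 1 of 4 arrays, which left 21756 probe sets and 12259 genes. Signals below the array median were set to it, which makes a ratio a lower bound. A gene's value was the mean log2 ratio over its kept probe sets, and 3-fold was the threshold. A ratio needed a kept probe set at or above the median on 1 of the arrays compared. All members were named, with measured genes of the pancreatic lists, the brightest genes of the other lists and the 10 most alike profiles. Genes were taken as candidates for likeness when their floored signals spanned at least 4-fold. Upstream sequences were taken from RefSeq (GRCm38.p6). With 1 array per group, the number of arrays limits the precision, and no test was run. The members and gene lists were chosen with earlier results of these data known. As alternatives, arrays were set to a common median or quantile-normalized, the filter was dropped or raised to the 75th percentile, and the floor was dropped or lowered to the 25th percentile. Further ones were the brightest probe set of each gene, counts of probe sets and a 2-fold threshold. The calculation of ratios was run on simulated arrays in which only bright genes were changed. That run does not cover signals near the floor or the spread between pools. Python 3.11.15, numpy 2.4.6, pandas 2.3.3, scipy 1.17.1 and matplotlib 3.10.9 were used.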

Additional observations from a re-analysis of the deposited data

How the results depend on the processing

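Across the alternatives, the 10 enzyme genes kept the direction of their median ratio with lubiprostone in both genotypes and between the treated pools. Counted as probe sets in place of genes, 16 were at least 3-fold lower with lubiprostone in WT mice (31 of all 20504 probe sets were) and 14 in CF mice (50 of 20723). At a 2-fold threshold, 7 genes in place of 3 were higher in CF + lubiprostone than in WT + lubiprostone, and over all genes 192 of 11792 in place of 62. With the filter at the 75th percentile, Ctrl, Cel and Pnliprp1 had no ratio between these pools, and the median log2 ratio of the rest was 1.35. With arrays scaled to the same median, Cela1 passed 3-fold in CF mice, at a log2 ratio of -1.70. No paired analysis was possible because each group had 1 array. The spread between mice and between pools is unknown, and dim genes have bounds only.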
